A study of Mus musculus with 8 samples.

Results

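The cytosolic ribosomal proteins are the structural proteins of the ribosome outside mitochondria. Their genes were taken by symbol from all measured genes: names of the Rpl and Rps series, Rplp0, Rplp1, Rplp2 and Rpsa, without the Rps6k kinases, Rps19bp1, Rpl7l1 and the pseudogenes marked -ps, and with a mean of at least 5 FPKM over the 8 libraries. An FPKM value counts a gene's fragments per kilobase and scales them to the library's total. The rule took 80 of 35275 gene identifiers, 47 of the large subunit and 33 of the small subunit. Ribosomes hold most of these proteins in equal numbers, so cells make them in matched amounts, and ribosome production increases when hepatocytes grow, as in a regenerating liver. Mammalian ribosomal protein mRNAs typically begin with a 5′ terminal oligopyrimidine (TOP) tract, an unbroken run of C and U at the cap through which mTORC1 and LARP1 control their translation and stability.

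Total RNA of mouse liver was sequenced from 4 samples labelled Triple LKO, a liver-specific loss of the 3 tristetraprolin (TTP) family genes Zfp36, Zfp36l1 and Zfp36l2, and from 4 samples labelled WT. The products of these genes bind AU-rich sequences of 3′ UTRs and promote mRNA decay. Each genotype held females 1 and 2 and males 3 and 4, and values of 4 libraries are given in that order throughout. The labels give no age, treatment, Cre driver, control allele or part of the liver and do not say whether tissue came from a tumour, although the study's title concerns hepatocellular carcinoma, and they do not state that each sample is another animal. The p-values thus rest on the spread among the 8 libraries, whatever its source.

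Zfp36 was lower in all LKO-labelled libraries, at 11.6, 17.4, 4.51 and 3.66 FPKM, against 41.0, 29.5, 61.4 and 46.3 FPKM in WT. Zfp36l1 was at 4.67, 8.63, 0.50 and 0.70 FPKM in LKO-labelled libraries, against 10.6, 16.4, 12.8 and 21.9 FPKM in WT, again with no overlap. Zfp36l2 was at 18.1, 33.04, 4.34 and 3.86 FPKM, against 11.8, 14.9, 14.4 and 17.2 FPKM in WT, so both LKO-labelled females went against their label for this gene. Depth was 15.11 to 18.79 M fragments per library. Among all 13573 tested genes the median log2 change was 0.39, so most genes read higher in the LKO-labelled livers before any member is considered. The predicted gene Gm42418, which lies over a ribosomal RNA repeat, took 0.042% of fragments in LKO-labelled female 1 and 0.060% in WT male 4, against 3.19% to 4.34% in the other 6 libraries. The hepatocyte markers summed to 20779 to 33464 FPKM in LKO-labelled livers and 42351 to 47691 FPKM in WT, with 7 of the 8 listed markers found and none at 0 in all libraries. By the genotype test described below, 2 of these 7 were lower and 0 higher, where 5.74% and 24.7% of all tested genes were. In bulk tissue, fewer cells of a type and less RNA per cell cannot be told apart.

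The start regions of the genes whose level differed most and least between the genotypes are shown first, since the pyrimidine run at the start is the sequence feature that ribosomal protein mRNAs are known for. Promoter sequences from RefSeq (GRCm38.p6) matched 59 of the 80 members, and each line gives 30 bases near the annotated start, on the strand of the gene, with the longest pyrimidine run within 25 bases of the start in capitals. Among the 6 members with the highest log2 change, Rplp0 (chr5:115559462-115559491, + strand), Rpl22l1 (chr3:28805499-28805528, +), Rpl13a (chr7:45128722-45128751, -), Rplp2 (chr7:141447636-141447665, +) and Rps19 (chr7:24884907-24884936, +) had an entry:
Rplp0: ttcgaggaccgcctggTTCTCCTataaaag
Rpl22l1: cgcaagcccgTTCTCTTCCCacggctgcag
Rpl13a: cgacaagaCCTCCTCCTTTCCCaggcggct
Rplp2: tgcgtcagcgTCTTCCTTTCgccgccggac
Rps19: gggtgtggagggCTCTCCCacgcggtcacc
Among the 6 with the lowest log2 change, Rpl36al (chr12:69184063-69184092, -), Rps27l (chr9:66946061-66946090, +), Rps2 (chr17:24720055-24720084, +), Rpl22 (chr4:152324413-152324442, +) and Rpl11 (chr4:136053369-136053398, -) had an entry:
Rpl36al: tattggttcgcaTTCCCgtcgctcaggttc
Rps27l: ccaCTCCTCTCCactcctccccgccgcctc
Rps2: cgagatctcgcgCTTCTTggagcactataa
Rpl22: aatatcagcgctgCTTCTggaatgttccag
Rpl11: aggccacggggccggaagTCTCCCTCTCTC
The longest run of all members stood in Rpl7a (chr2:26910788-26910817, + strand), whose product lies in the large subunit, with 21 pyrimidines:
Rpl7a: cacaaTTCCCTCTTCTTTCTTTCTCCagca

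Runs of at least 8 pyrimidines were more frequent near the starts of ribosomal protein genes than near other starts. Of the 59 matched members, 32 held such a run (54.2%, 95% Wilson interval 41.7% to 66.3%), against 22.6% of 9716 other tested protein-coding genes and 22.3% of all 27025 genes in the table. The letters CTTTCC, read on the gene's strand only and themselves a short pyrimidine run, stood in 10 of the 59 members (16.9%), against 2.6% of the other tested coding genes and 2.8% of all genes. Where a gene had several annotated starts the longest run was taken. The RefSeq start was not always the first base of the gene annotation used for the FPKM. The Rpl22 window lay before its gene, which begins at chr4:152325742. The windows of Rps2 and Rps19 lay inside their genes, which begin at chr17:24718116 and chr7:24884371. Both groups of sequences above hold long and short runs: 10, 14 and 10 bases in Rpl22l1, Rpl13a and Rplp2, 7 bases in Rplp0 and Rps19, and 12 and 9 bases in Rpl11 and Rps27l. Counted from the annotated start as 0, runs began at 11, 1, 2, -5 and 6 in Rplp0, Rpl22l1, Rpl13a, Rplp2 and Rps19. They began at -13, -22, 4, -10 and 13 in Rpl36al, Rps27l, Rps2, Rpl22 and Rpl11. The run of Rps27l thus ended before the start, and whether any run is a TOP tract was not tested. The median log2 change of members with a run of at least 8 was 0.92 (21 of 32 higher), that of members without one 0.76 (14 of 27), and that of members with no entry 1.02 (17 of 21). The AU-rich heptamer TATTTAT, read on the transcript strand of annotated 3′ UTRs, was in 2 of 79 members (2.53%, Rps15a and Rps16) and in 26.46% of 12333 tested coding genes. The 3′ UTRs of the members had a median of 75 bases, against 906 bases for all of these genes, so the members offered less sequence for a match.

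Fragments of the 80 genes together took a larger share of every LKO-labelled library than of any WT library. The share was 2.30%, 2.63%, 3.58% and 2.03% in LKO-labelled libraries, against 1.26%, 1.19%, 1.30% and 1.44% in WT. The means were 2.63 ± 0.68% and 1.30 ± 0.10% (SD, n = 4 each), a ratio of 2.03, and the ratio was 2.01 in females and 2.05 in males. It was 1.88 when the 50 most abundant genes were left out of the total and 2.01 without mitochondrial genes and Gm42418. The counting error of each share was small, with 95% Wilson bounds of 3.57% to 3.58% for the highest library and 1.19% to 1.20% for the lowest. LKO-labelled male 3 stood at the top and male 4 at the bottom of their group, and male 4 was still above all WT libraries.

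**Figure D1:**
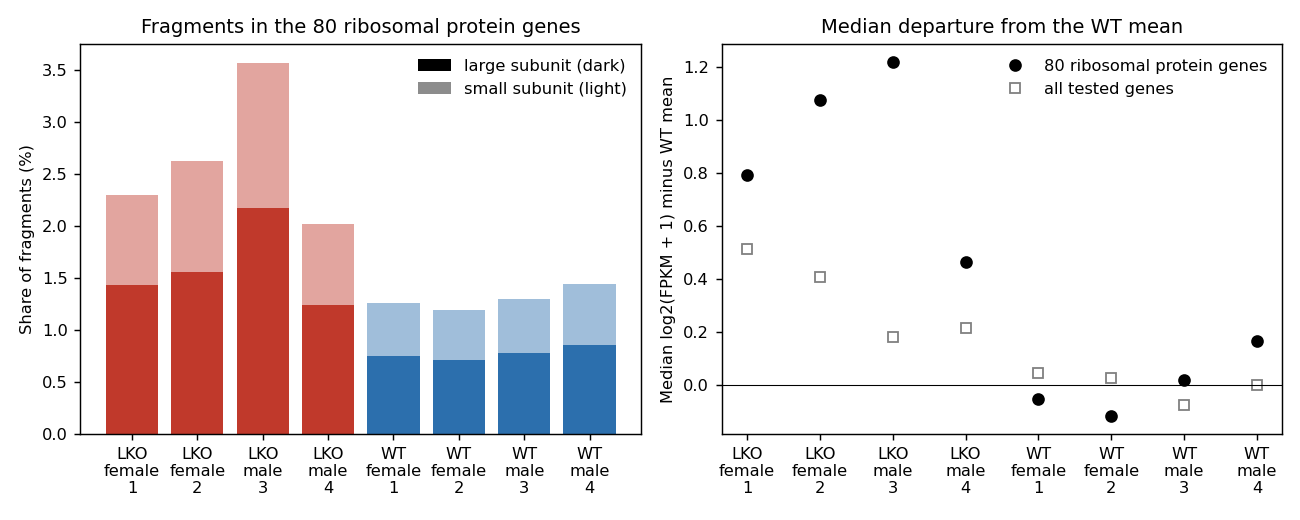
Left, percent of fragments in the 80 ribosomal protein genes in each library, large subunit dark and small subunit light, LKO-labelled in red and WT in blue. Right, median over genes of log2(FPKM + 1) minus the WT mean, for the 80 genes (filled circles) and all 13573 tested genes (open squares). LKO-labelled shares lie between 2.03% and 3.58% and WT shares between 1.19% and 1.44%, and the gap between circle and square is widest in LKO-labelled male 3.

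The rise covered both subunits. Of the 80 members, 52 were higher in LKO-labelled livers (65.0%) and 0 were lower, by limma-trend on log2(FPKM + 1) with genotype and sex as terms and a Benjamini-Hochberg adjusted p under 0.05 over all tested genes. Among all tested genes 24.7% were higher and 5.74% lower by the same test. No member was lower at an unadjusted p under 0.05 either, where 1132 of 13573 tested genes were. By voom on fragments recovered from the FPKM, 57 members were higher, where 31.0% of all genes were, and 0 lower. The large subunit had 30 of 47 members higher with a median log2 change of 0.86, and the small subunit 22 of 33 with a median of 0.95. Over all members the median was 0.90, beside 0.39 for all tested genes. Changes were positive for 79 of 80 members and for 10114 of 13573 tested genes. For 57 members every LKO-labelled library was above every WT library, which held for 25.6% of all tested genes, and for 0 members was it below every WT library, as for 5.72% of all tested genes. A log2 change of at least 1 was seen for 32 members, beside 16.7% of all tested genes.

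**Figure D2:**
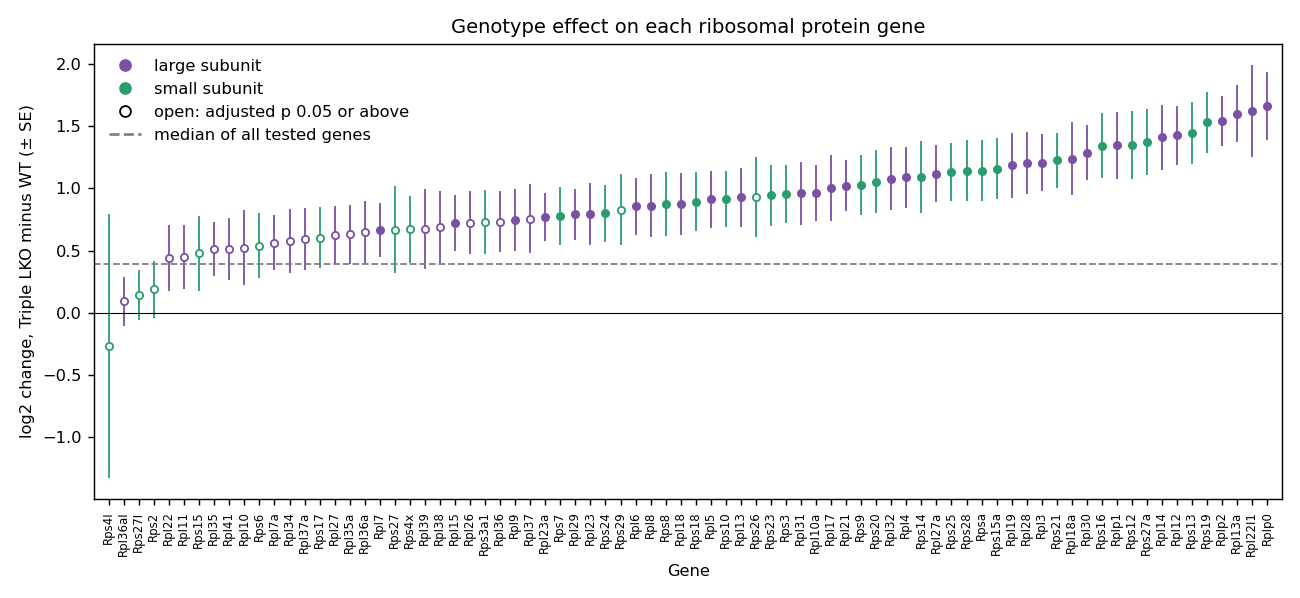
Log2 change on the log2(FPKM + 1) scale, Triple LKO minus WT, with its standard error for 78 of the 80 genes, ordered by change and coloured by subunit. Filled points passed an adjusted p of 0.05 (50 genes), open points did not (28 genes), and the dashed line is the median of all tested genes, 0.39. Large and small subunit genes are interleaved along the order, from Rps4l at -0.27 to Rplp0 at 1.66.

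Read against the shift of the whole libraries, fewer members passed, and the size of their change depended on the method. After each library was divided by its median ratio to the geometric mean of all libraries, the median log2 change of the members was 0.47, beside 0.06 for all tested genes, and 15 members were higher and 0 lower. The background of this comparison was 10.6% higher and 10.7% lower. The split of all calls was 49.6% higher after this scaling, 43.2% after quantile normalization and 42.8% after removal of GC and length trends, against 81.1% higher on the FPKM scale as deposited. Of the 15 members, 13 were the stalk proteins Rplp0, Rplp1 and Rplp2, with Rpl12, Rpl13a, Rpl14, Rpl22l1 and Rpl30 of the large subunit, and Rps13, Rps16, Rps19, Rps21 and Rps27a of the small subunit. Changes stayed positive for 76 members, where they were positive for 7328 of 13573 tested genes. Those of Rpl36al, Rps2, Rps27l and Rps4l were negative, none of them called. Quantile normalization, which gives all libraries the same distribution, left the median of the members at 0.90, with that of all genes at -0.02, and 49 members were higher and 0 lower, where 7.7% of all genes were higher and 10.1% lower. When trends with GC content and transcript length were taken out of each library, 18 members were higher, where 8.14% of all genes were, and their median was 0.54, beside 0.01 for all genes.

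The number of calls changed with the libraries included, for members and for all genes. Without LKO-labelled male 3, 34 members were higher, where 19.0% of all genes were. Without LKO-labelled male 4, 62 members were higher, where 16.2% of all genes were. Without WT female 1, WT female 2 or WT male 3 the count was 27, 28 or 30, where 13.8%, 11.1% or 14.3% of all genes were higher, while the median stayed between 0.78 and 1.08 whichever library was left out. Without both libraries low in Gm42418, 26 members were higher on the FPKM scale, where 11.2% of all genes were, and 1 after median-of-ratios scaling, where 4.71% were, with 0 lower in both. After scaling, the count was 16 and 19 without LKO-labelled female 1 and male 4, where 9.1% and 6.92% of all genes were higher, and 7 without LKO-labelled female 2 or male 3 (8.8% of members), where 10.6% and 8.1% of all genes were higher. It was 4, 3, 5 and 3 without WT female 1, female 2, male 3 and male 4 (5.0%, 3.8%, 6.2% and 3.8% of members), where 5.45%, 4.81%, 6.56% and 7.15% of all genes were. In the 6 fits without LKO-labelled female 2 or male 3 or without a WT library, the share of members called was thus near or below that of all genes.

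The stalk proteins, which recruit the elongation factors to the large subunit, were among the members with the highest levels and changes. Rplp0, the stalk's base, was at 811, 690.4, 1762 and 973 FPKM in LKO-labelled livers, against 306, 310.4, 288 and 347 FPKM in WT. Rplp1 was at 1203, 1101, 1762 and 895 FPKM, against 438, 377, 611 and 494 FPKM in WT. Rplp2, the partner of Rplp1, was at 197, 223, 367 and 243 FPKM, against 81.0, 81.9, 91.9 and 86.2 FPKM in WT. None of the 3 genes overlapped between the genotypes, and male 3 was the highest library for each. The log2 changes were 1.66 ± 0.28 for Rplp0 (SE, limma adjusted p = 0.00506), 1.35 ± 0.27 for Rplp1 (0.00959) and 1.55 ± 0.20 for Rplp2 (0.00214), and all 3 also passed after scaling (adjusted p = 0.0216, 0.0493 and 0.0113). Without both libraries low in Gm42418, Rplp1 had a log2 change of 1.24 at an adjusted p of 0.0635.

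Rpl13a and Rps19 also stood near the top of the order, as did Rpl22l1. Rpl13a, a surface protein of the large subunit, was at 537, 572, 884 and 483 FPKM in LKO-labelled livers, against 195, 168, 214 and 219 FPKM in WT. Rps19, the gene most often mutated in human Diamond-Blackfan anaemia, was at 95.2, 89.8, 109.6 and 57.0 FPKM, against 27.4, 23.4, 34.0 and 32.3 FPKM in WT. Groups did not overlap for either gene, and male 4 was the lowest LKO-labelled library for both. Log2 changes were 1.60 ± 0.23 and 1.53 ± 0.24 (SE, limma adjusted p = 0.00317 and 0.00435).

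Further large subunit proteins that rose were Rpl19, Rpl4 and Rpl3. Rpl19, which reaches across to the small subunit, was at 575, 586, 1264 and 673 FPKM in LKO-labelled livers, against 306, 308, 298 and 378 FPKM in WT. Rpl4, part of the nascent chain tunnel, was at 569.9, 536, 1178 and 706 FPKM, against 332, 312, 336 and 353 FPKM in WT. Rpl3, which lies near the peptidyl transferase centre, was at 234, 275, 437 and 244 FPKM, against 129, 114, 122 and 132 FPKM in WT. The groups were apart for all 3, with log2 changes of 1.19 ± 0.26, 1.09 ± 0.25 and 1.21 ± 0.23 (SE, limma adjusted p = 0.0136, 0.0146 and 0.00801). After median-of-ratios scaling none of these 3 passed (adjusted p = 0.0888, 0.112 and 0.0555). Rps26, a protein at the mRNA exit channel, was at 463, 638, 1411 and 745 FPKM, against 387, 407, 313 and 472 FPKM in WT. Its groups overlapped through LKO-labelled female 1, and its log2 change of 0.93 ± 0.32 had an adjusted p of 0.0556. Rpsa, the small subunit protein also known as a laminin receptor, was at 469, 393, 759 and 416 FPKM, against 230.5, 221, 198 and 240.3 FPKM in WT, a log2 change of 1.14 ± 0.25 (adjusted p = 0.0128, and 0.0855 after scaling). Without both libraries low in Gm42418, the adjusted p was 0.0562 for Rpl19, 0.0687 for Rpl4 and 0.0649 for Rpsa.

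The 2 proteins that carry the 5S RNA into the large subunit and that can bind Mdm2 differed in their calls. Rpl5 was at 181, 246, 260.4 and 154 FPKM in LKO-labelled livers, against 112, 96.1, 103 and 125 FPKM in WT, with no overlap and a log2 change of 0.91 ± 0.23 (limma adjusted p = 0.021, and 0.17 after scaling). Its adjusted p was 0.0538, 0.0703 and 0.0597 without WT female 1, female 2 and male 3. Rpl11 was at 207, 311, 322 and 173 FPKM, against 163, 151, 204 and 204 FPKM in WT, with male 4 inside the WT range and a log2 change of 0.45 ± 0.26 (adjusted p = 0.204). The difference between these genes was not tested. Rps6, the small subunit protein that S6 kinases phosphorylate, was at 242, 401, 442 and 246 FPKM, against 216, 214, 196 and 260.0 FPKM in WT. Its groups overlapped in both LKO-labelled female 1 and male 4, and its log2 change was 0.54 ± 0.26 (adjusted p = 0.14). Rpl10, known from yeast to join the large subunit late, was at 391, 729, 983 and 482 FPKM, against 445, 382, 431 and 433 FPKM in WT, with female 1 inside the WT range (log2 change 0.52 ± 0.30, adjusted p = 0.204).

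**Figure D3:**
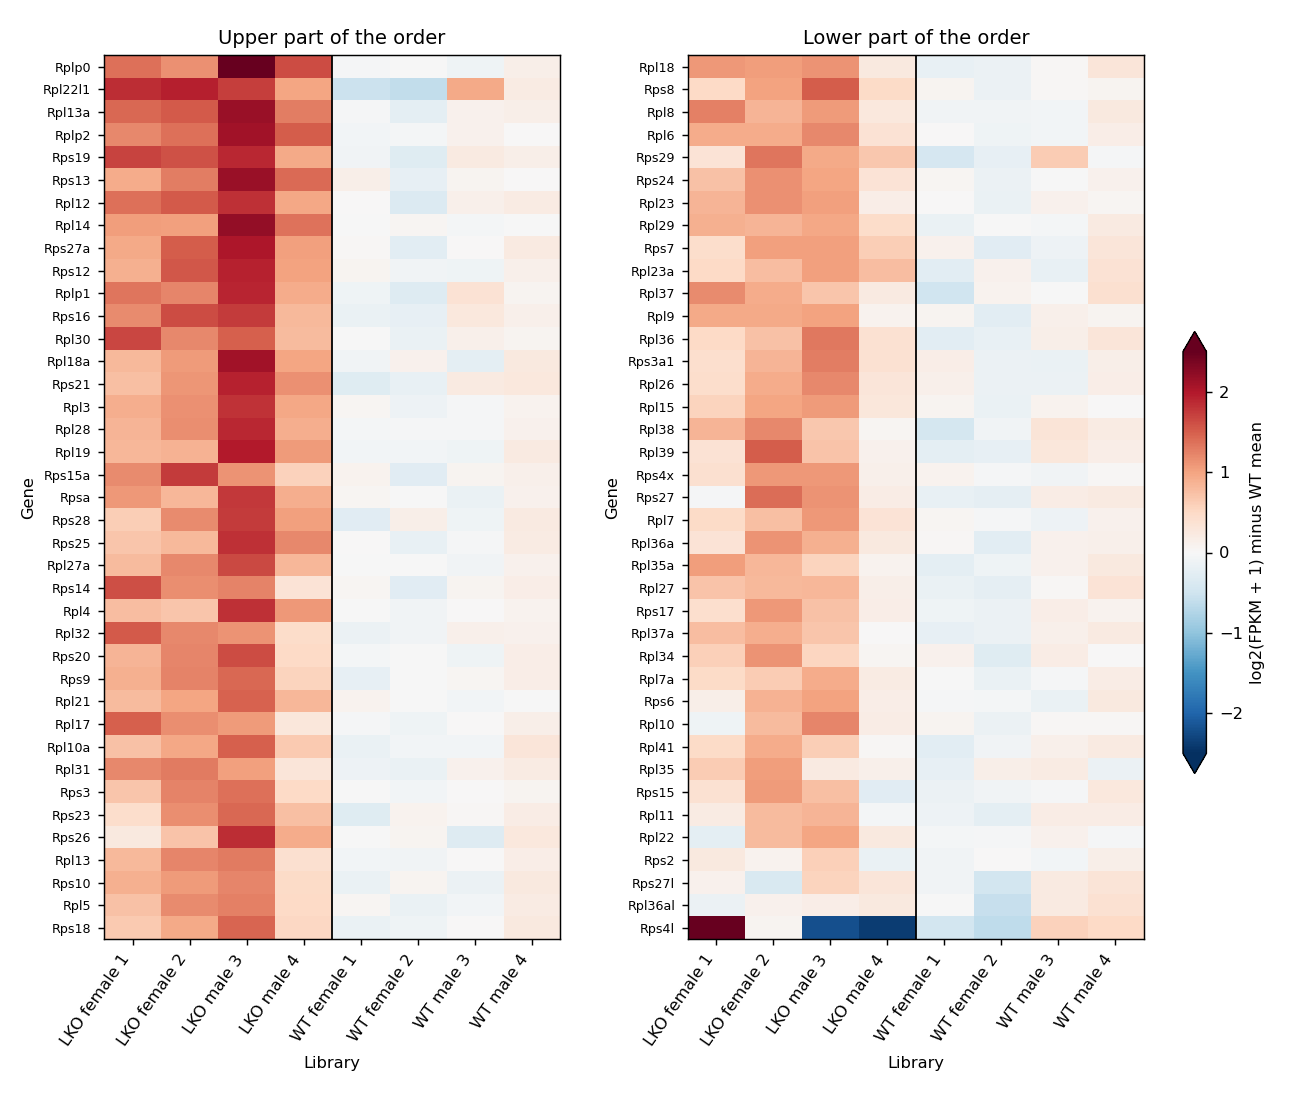
Log2(FPKM + 1) of 78 ribosomal protein genes minus their WT means in the 8 libraries, genes ordered by log2 change, LKO-labelled libraries left of the line and WT right of it. The column of LKO-labelled male 3 holds the highest value for 52 of these genes, and Rps4l in the bottom row is above the WT mean in LKO-labelled female 1 and below it in the LKO-labelled males.

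Paralogs of ribosomal proteins stood at both ends of the order. Rpl22l1, the paralog of Rpl22, was at 85.7, 91.6, 78.8 and 46.7 FPKM in LKO-labelled livers, against 15.6, 14.8, 45.5 and 26.7 FPKM in WT. Rpl22 itself was at 41.4, 85.8, 98.3 and 58.2 FPKM, against 47.8, 48.0, 52.8 and 48.5 FPKM in WT. The paralog did not overlap between genotypes, whereas Rpl22 did, through female 1. The log2 change was 1.62 ± 0.37 for Rpl22l1 (SE, limma adjusted p = 0.0154) and 0.44 ± 0.27 for Rpl22 (adjusted p = 0.224). The call of Rpl22l1 was lost without WT female 2 (adjusted p = 0.0518), without both libraries low in Gm42418 (0.0887) and with library weights, where its log2 change was 0.97 (0.0589). The ratio of Rpl22l1 to Rpl22 was 2.07, 1.07, 0.80 and 0.80 in LKO-labelled libraries, against 0.33, 0.31, 0.86 and 0.55 in WT. WT male 3 was above both LKO-labelled males in this ratio, and an exact two-sided permutation test gave p = 0.0857 (0.171 adjusted over 4 paralog pairs), where 0.0286 is the smallest p that 4 against 4 allow.

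Rps27l, Rpl36al and Rps4l were at the other end. Rps27l, a paralog of Rps27 known as a p53 target in human cells, was at 205, 145, 279 and 233 FPKM in LKO-labelled livers, against 178, 138, 221 and 239 FPKM in WT. Rps27 was at 381, 1032, 853 and 444 FPKM, against 343, 333, 441 and 459 FPKM in WT. For both genes the groups overlapped, with log2 changes of 0.15 ± 0.20 and 0.67 ± 0.35 (SE, limma adjusted p = 0.587 and 0.169). Rpl36al was at 78.7, 93.6, 97.6 and 103 FPKM, against 86.1, 57.7, 101 and 113 FPKM in WT, and its paralog Rpl36a at 142, 243, 208 and 132 FPKM, against 114, 92.3, 119 and 123 FPKM in WT. Rpl36a did not overlap, by a small margin in male 4 (log2 change 0.65 ± 0.25, adjusted p = 0.0766), and Rpl36al did (0.09 ± 0.20, adjusted p = 0.734). Rpl36al was the only member with its highest value in a WT library, WT male 4. The ratio of Rpl36al to Rpl36a was 0.55 ± 0.17 in LKO-labelled libraries and 0.79 ± 0.13 in WT (SD, n = 4 each, exact permutation p = 0.0857, adjusted 0.171), and that of Rps27l to Rps27 0.38 ± 0.19 and 0.49 ± 0.05 (exact permutation p = 0.429, adjusted 0.429).

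Rps4l, a paralog of Rps4x, was the member whose libraries differed most. It was at 84.0, 7.27, 0.73 and 0.54 FPKM in LKO-labelled livers, against 4.79, 4.12, 10.9 and 10.2 FPKM in WT. LKO-labelled female 1 stood far above all others, and both LKO-labelled males lay below every WT library. The log2 change was 2.28 in females and -2.82 in males, with an interaction adjusted p of 0.0519, and its pooled value of -0.27 ± 1.06 has no single direction. Without LKO-labelled female 1 the female change minus the male change was 3.42, and the male change was still -2.82. The female change then rests on LKO-labelled female 2 alone. Rps4x was at 325, 524, 527 and 269.7 FPKM, against 265, 242, 233 and 252 FPKM in WT, a log2 change of 0.67 ± 0.27 (adjusted p = 0.0847). Rps2, which is not a paralog of these, was likewise near the bottom of the order at 551, 491, 707 and 417 FPKM, against 435, 472, 444 and 514 FPKM in WT (log2 change 0.19 ± 0.23, adjusted p = 0.529). The tissue-restricted paralogs were near 0: Rpl3l averaged 0.12 ± 0.13 FPKM in LKO-labelled livers and 0.11 ± 0.09 FPKM in WT (SD, n = 4 each), Rpl39l was listed at 0 in all LKO-labelled libraries and at 0.069 FPKM in WT male 3 only, and Rpl10l was listed at 0 in all 8. Rpl39, the common form of Rpl39l, was at 97.4, 219, 124 and 81.2 FPKM, against 63.9, 65.1, 92.5 and 84.9 FPKM in WT (log2 change 0.67 ± 0.32, adjusted p = 0.133).

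**Figure D4:**
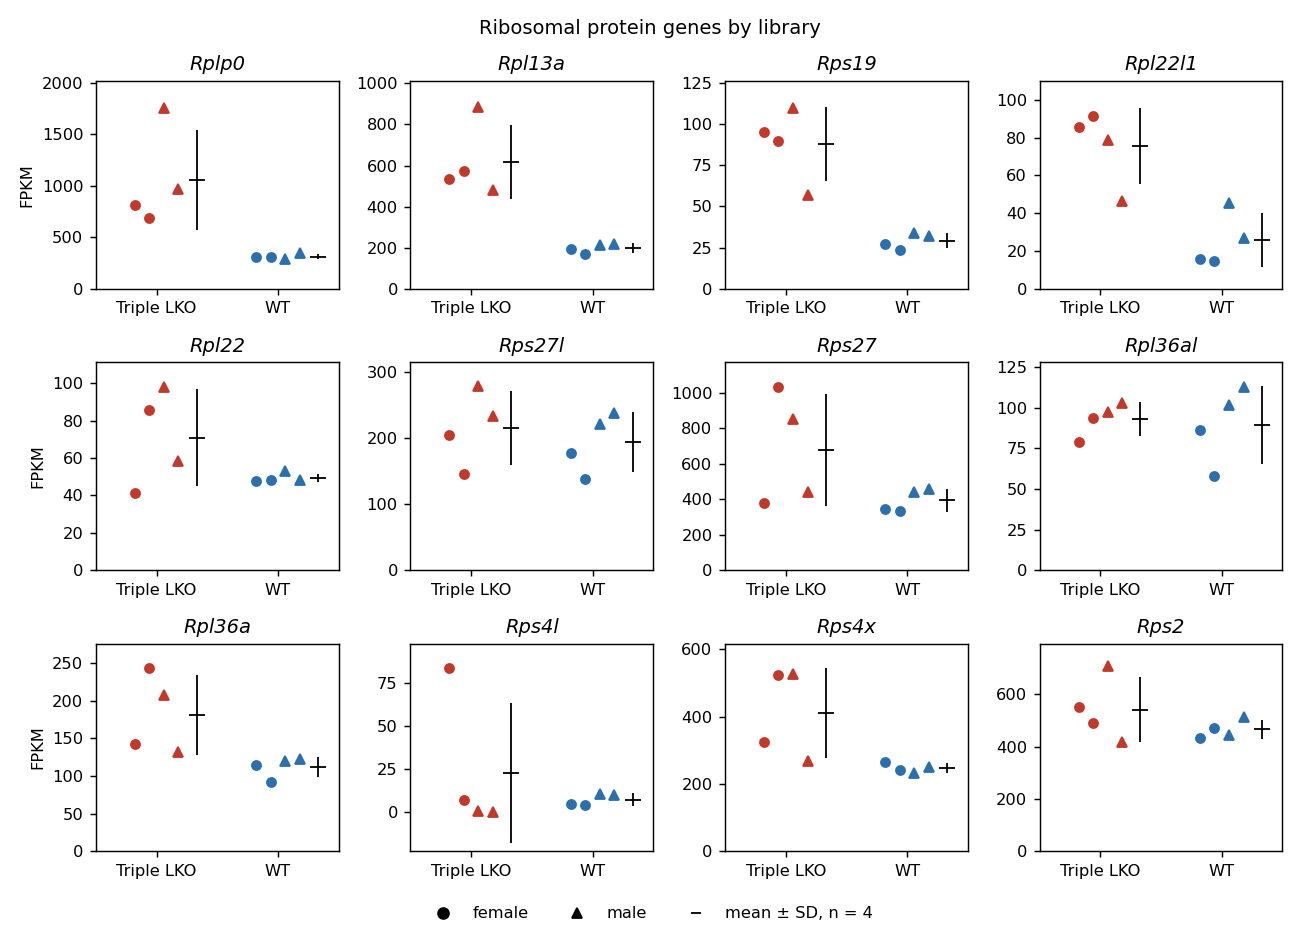
FPKM of 12 ribosomal protein genes in each library, LKO-labelled in red and WT in blue, females as circles and males as triangles, with the mean and SD of each genotype (n = 4) as a black bar. Rplp0, Rpl13a, Rps19 and Rpl22l1 have no overlap between genotypes, Rpl22, Rps27l, Rps27, Rpl36al, Rps4l and Rps2 overlap, and the LKO-labelled values of Rps4l run from 0.54 to 84.0.

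Of the other 53 members, which by the rule for names exclude the highest and lowest changes, log2 changes ran from 0.48 to 1.45 with a median of 0.91, and 40 of them were higher. Their means lay between 12.1 and 713 FPKM in LKO-labelled livers and between 7.96 and 295 FPKM in WT. Across all members the lowest mean over 8 libraries was 10.02 FPKM for Rpl35 and the highest 860.2 FPKM for Rplp1, with a median of 243 FPKM. Just under the threshold of 5 FPKM was Rpl37rt at 4.72 FPKM, and 10 matching symbols in all fell below it, Rpl24 at 0.58 FPKM among them. The lengths behind the FPKM ran from 255 bases for Rps27 to 5130 bases for Rps15a and equalled the longest annotated transcript for 45 members, so an order of levels between genes depends on the annotation. Ribosomal protein genes have many near-identical pseudogene copies, 238 with a symbol marked -ps here and 6 of these at a mean of 5 FPKM or more, and how shared reads were assigned is not given, so single values are uncertain.

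Most members varied together from library to library. The Pearson correlation of a member with the mean of the other members over the 8 libraries had a median of 0.927 and was at least 0.9 for 54 members. The lowest values were -0.109 for Rps4l, 0.273 for Rpl36al, 0.306 for Rps27l, 0.658 for Rpl35, 0.693 for Rps2 and 0.728 for Rpl22. These are descriptions over libraries that also share genotype, depth and composition. The ratio of small to large subunit fragments stayed between 0.606 and 0.684 in LKO-labelled libraries and between 0.653 and 0.686 in WT. Outside the members, the closest genes by Pearson correlation of log2(FPKM + 1) with the members' mean were Plekhj1 (0.990), Gm7536 (0.990, annotated as a processed pseudogene), Rpl10a-ps1 (0.989, a pseudogene of Rpl10a), Rbm18 (0.988) and Hp, which encodes haptoglobin (0.977). Hp was at 3805, 4727, 5888 and 3710 FPKM in LKO-labelled livers, against 1222, 1062, 1386 and 1649 FPKM in WT.

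Within the LKO-labelled group, male 3 was above male 4 for 79 of 80 members, with a median ratio of 1.72, and female 2 above female 1 for 62 members with a median ratio of 1.21. Male 3 was the highest of all 8 libraries for 54 members, female 2 for 17 and female 1 for 8. The number of members above every WT library was 72 in female 1, 76 in female 2, 78 in male 3 and 61 in male 4. These counts are not given for all genes. The median of all tested genes relative to the WT mean was itself 0.51, 0.41, 0.18 and 0.21 in the LKO-labelled libraries on the log2 scale. The median of the members minus the median of all genes, both relative to the WT mean, was 0.28, 0.67, 1.04 and 0.25 in LKO-labelled libraries, against -0.10, -0.15, 0.10 and 0.17 in WT on the log2 scale. The median SD of a member was 0.43 in LKO-labelled livers and 0.18 in WT on that scale, beside 0.47 and 0.21 for all tested genes. Marker sums of other cell types also varied in this group: stellate and fibroblast markers summed to 391, 1354, 32.8 and 41.2 FPKM, neutrophil markers to 391, 58.9, 9.63 and 16.0 FPKM and cholangiocyte markers to 293, 3158, 9.79 and 7.46 FPKM. In WT the ranges were 66.3 to 120.4 FPKM, 1.34 to 4.45 FPKM and 19.96 to 22.1 FPKM. Male 3, with the highest ribosomal protein levels, was below the WT range for the stellate and cholangiocyte markers. Dividing-cell markers were higher for 6 of 6 genes, where 24.7% of all tested genes were higher and 5.74% lower. They summed to 50.8, 16.9, 34.2 and 39.5 FPKM, against 1.71 to 3.68 FPKM in WT. Macrophage markers summed to 622, 912, 59.0 and 113 FPKM in LKO-labelled livers, against 108 to 252 FPKM in WT. Markers of T, NK and B cells summed to 38.1, 59.1, 3.71 and 6.42 FPKM, against 3.15 to 13.2 FPKM in WT, and endothelial markers to 43.4, 144, 42.9 and 36.0 FPKM, against 49.2 to 77.7 FPKM in WT. By the genotype test 3 of 6 stellate and fibroblast markers were higher and 2 lower, and 1 of 7 macrophage markers higher and 2 lower. Endothelial markers had 1 of 5 higher and 1 lower, and of 3 tested cholangiocyte markers 0 were called. Neutrophil markers had 3 of 4 higher and those of T, NK and B cells 1 of 7, with 0 lower in both. A sum thus does not give the direction of each marker. The part of these cell types in the ribosomal protein levels was not tested.

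On the FPKM scale as deposited, members were called higher in both sexes. In females 46 members were higher and 0 lower in LKO-labelled livers, where 28.1% of all genes were higher and 6.23% lower, with a median log2 change of 1.01 beside 0.45 for all genes. In males 24 members were higher and 0 lower, where 13.4% of all genes were higher and 4.09% lower, with a median of 0.75 beside 0.24. After median-of-ratios scaling 7 members were higher in females, where 15.1% of all genes were, and in males 8 were higher and 1, Rps4l, lower, where 8.08% and 7.2% of all genes were. With limma's library weights, 1 member was higher in females, where 11.0% of all genes were. On the deposited scale, called in both sexes were 17 members, in females alone 29 and in males alone 7. The same split of all genes is not given here, and more of all genes were higher in females (28.1%) than in males (13.4%). The difference between the sexes passed for 0 members by limma's interaction test, where 7.21% of all genes passed, and voom also called 0 members. An unadjusted interaction p under 0.05 was found for 4 of 80 members, against 3462 of 13573 tested genes. The 4 with the smallest interaction p were Rps4l, Rpl22l1, Rpl38 and Rpl35a. Rpl22l1 had a log2 change of 2.47 in females and 0.78 in males (interaction adjusted p = 0.0725). Rpl38, which influences translation of Hox mRNAs in mouse embryos, was at 147, 187, 129 and 83.8 FPKM, against 59.3, 76.5, 101 and 93.0 FPKM in WT, a log2 change of 1.29 in females and 0.10 in males (interaction adjusted p = 0.117). Rpl35a was at 83.3, 72.4, 59.5 and 42.5 FPKM, against 33.7, 37.3, 43.1 and 47.4 FPKM in WT, a log2 change of 1.11 in females and 0.15 in males (interaction adjusted p = 0.124). Each within-sex contrast sets 2 libraries against 2, so leaving out 1 library leaves 1 in its group. Fewer members were then called in females without any single female library, and in males without LKO-labelled male 3 or either WT male. The same held in females without either WT male and in males without either WT female. More were called in males without LKO-labelled male 4, and in each sex without either LKO-labelled library of the other sex. The shares of all genes called in these fits are not given here, so these differences cannot be set against those of all genes.

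The factors that build ribosomes were called mostly in males. Of 51 ribosome biogenesis genes, 30 were higher (58.8%, where 24.7% of all genes were) and 0 lower in LKO-labelled livers. Their median log2 change was 0.95. In females 5 were called (9.8%, below the 28.1% of all genes) and in males 40 (78.4%, where 13.4% of all genes were). The medians were 0.39 in females, beside 0.45 for all genes, and 1.49 in males, beside 0.24. The interaction passed for 10 of the 51, where 7.21% of all genes passed, and the difference of this list from the ribosomal proteins was not tested. Nmd3, an export adaptor of the large subunit, was at 12.3, 12.1, 47.0 and 46.5 FPKM, against 18.6, 13.9, 10.6 and 18.2 FPKM in WT. Rpf2, which in yeast helps to bring the 5S RNA particle into the large subunit, was at 6.82, 5.95, 26.0 and 26.2 FPKM, against 7.34, 3.43, 3.59 and 5.71 FPKM in WT. Polr1b, the second largest subunit of RNA polymerase I, was at 4.67, 4.15, 12.8 and 12.9 FPKM, against 5.21, 4.75, 3.57 and 4.40 FPKM in WT. In all 3 the LKO-labelled males stood apart from the other 6 libraries, and males 3 and 4 were alike. These 3 genes were chosen after their values were seen, and the female minus male changes were -2.05, -2.01 and -1.63 (limma interaction adjusted p = 0.0298, 0.0462 and 0.0221). The genes of the list with the smallest p for genotype were higher in both sexes: Eif6, which keeps the large subunit from joining too early (log2 change 1.43 ± 0.21), Npm1 (1.21 ± 0.22), which encodes nucleophosmin, and Polr1d (0.95 ± 0.17), a subunit of RNA polymerases I and III, at limma adjusted p = 0.00314, 0.00699 and 0.00722. Npm1 and Polr1d were not called after scaling (adjusted p = 0.0537 and 0.0585).

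**Figure D5:**
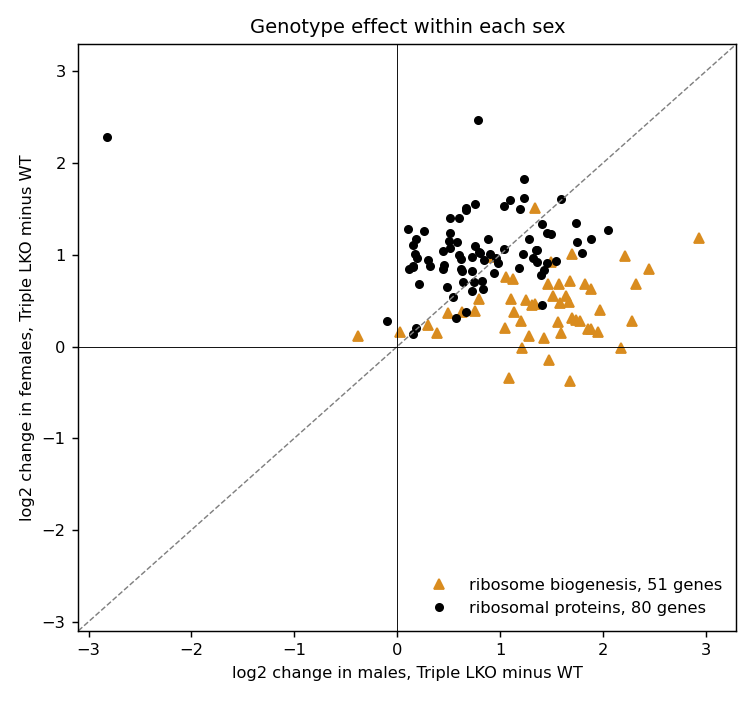
Log2 change in females (vertical) against log2 change in males (horizontal), Triple LKO minus WT, for the 80 ribosomal protein genes (circles) and 51 ribosome biogenesis genes (triangles), with equality as the dashed line. Medians are 1.01 in females and 0.75 in males for the ribosomal proteins and 0.39 and 1.49 for the biogenesis genes, and the circle at the far left is Rps4l.

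Other components of translation were called higher in part, where 24.7% of all tested genes were. Among protein genes of the cytosolic ribosome outside the Rpl and Rps names, Fau, which encodes the small subunit protein RPS30 as a fusion, had a log2 change of 0.94 ± 0.21 (limma adjusted p = 0.0137) and Rack1, a signalling scaffold on the small subunit, 0.89 ± 0.25 (adjusted p = 0.0285). Neither passed after scaling (adjusted p = 0.112 and 0.202), removal of GC and length trends (0.132 and 0.198) or without both libraries low in Gm42418 (0.057 and 0.0787). With library weights Rack1 had an adjusted p of 0.0726, and without any 1 of LKO-labelled libraries 1 to 3 or WT libraries 1 to 3 Rack1 had an adjusted p of 0.0511 to 0.0886. Among 18 other mRNAs known for a TOP tract, 10 were higher and 0 lower with a median of 0.75, led by Hnrnpa1 (1.51 ± 0.20, adjusted p = 0.00254), an RNA-binding protein, Eef1b2 (1.41 ± 0.23, 0.00483), an exchange factor of elongation, and Pabpc1 (1.64 ± 0.29, 0.00645), the cytoplasmic poly(A)-binding protein. Of 30 translation initiation genes 14 were higher and 0 lower, with a median of 0.63, led by Eif3k (1.42 ± 0.24, adjusted p = 0.00519), Eif2b2 (0.86 ± 0.17, 0.00832) and the helicase Eif4a1 (1.35 ± 0.27, 0.0104). Eif2b2 was not called after scaling (adjusted p = 0.0926), quantile normalization (0.127) or removal of GC and length trends (0.124), and Eif4a1 not after scaling (0.0525) or without both libraries low in Gm42418 (0.0507), where Pabpc1 was also not called (0.0512). Among 20 regulators of TOP mRNAs and mTORC1, 5 were higher (beside 24.7% of all tested genes) and 1 lower, and their median of 0.32 was under the 0.39 of all genes. Eif4ebp1, an inhibitor of cap-dependent initiation, had a log2 change of 1.46 ± 0.31 (adjusted p = 0.0113) and its relative Eif4ebp2 one of -0.79 ± 0.18 (adjusted p = 0.015). Max, the partner of Myc, was higher by 1.04 ± 0.17 (adjusted p = 0.00494), as was Akt1s1, an inhibitor within mTORC1, by 0.73 ± 0.17 (adjusted p = 0.0145). Akt1s1 was not called after scaling (log2 change 0.31, adjusted p = 0.196), quantile normalization (0.45, 0.0818) or removal of GC and length trends (0.20, 0.442), nor without both libraries low in Gm42418 (0.62, 0.0673).

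The hosts of small nucleolar RNAs, many of which also carry a TOP tract, had 6 of 9 tested genes higher and 0 lower, of 14 listed. The share higher was 66.7%, beside 24.7% of all tested genes. Snhg6 was at 31.1, 37.6, 54.0 and 29.8 FPKM in LKO-labelled livers, against 5.09, 8.80, 7.19 and 10.1 FPKM in WT. Its log2 change was 2.15 ± 0.25 (limma adjusted p = 0.00133), and those of Snhg15 and Snhg5 were 1.84 ± 0.25 and 1.11 ± 0.22 (adjusted p = 0.00257 and 0.01), that of Snhg5 not called after quantile normalization (0.0789). A list of 10 genes for p53 and the 5S RNA particle, here called the p53 genes, had 8 higher and 0 lower. Among all tested genes 24.7% were higher and 5.74% lower. A link of these genes to free ribosomal proteins was not tested. Cdkn1a, which encodes the cell cycle inhibitor p21, was at 94.4, 68.0, 124 and 60.0 FPKM, against 1.48, 1.63, 11.3 and 1.59 FPKM in WT, a log2 change of 4.47 ± 0.49 (adjusted p = 0.00107). Phlda3, an inhibitor of Akt, and Zmat3, an RNA-binding p53 target, had log2 changes of 3.05 ± 0.33 and 1.51 ± 0.20 (adjusted p = 0.000995 and 0.00251).

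The proteins of the mitochondrial ribosome were near the shift of the libraries. Of 72 mitochondrial ribosomal protein genes, 13 were higher (18.1%, below the 24.7% of all tested genes) and 1 lower. Their median log2 change was 0.36, close to the 0.39 of all tested genes. After median-of-ratios scaling 0 were higher and 2 lower with a median of -0.05. Mrpl20 and Mrpl52, large subunit proteins of that ribosome, had log2 changes of 0.80 ± 0.17 and 0.84 ± 0.19 (SE, limma adjusted p = 0.0124 and 0.0144), and Mrpl14, of the same subunit, fell by 0.71 ± 0.15 on the log2 scale (adjusted p = 0.0114). Mrpl20 and Mrpl52 were not called after scaling (adjusted p = 0.182 and 0.167) or removal of GC and length trends (0.0938 and 0.113), and Mrpl20 not after quantile normalization (0.0586) or with genotype alone (0.103). Without both libraries low in Gm42418 none of the 3 was called (adjusted p = 0.0518 for Mrpl20, 0.0583 for Mrpl52 and 0.0576 for Mrpl14), and Mrpl52 was not called without WT female 2 (0.055). The difference between the lists of both ribosomes was not tested. After that scaling the other lists had medians of 0.54 for ribosome biogenesis (3 higher), 0.32 for other TOP mRNAs (6 higher), 0.21 for initiation (1 higher), -0.02 for regulators of TOP mRNAs and mTORC1 (2 higher, 2 lower), 0.60 for small nucleolar RNA hosts (3 higher) and 0.69 for the p53 genes (6 higher), beside 0.06 for all tested genes. With 10.6% of all genes higher after scaling, the shares called of biogenesis (5.9%), initiation (3.3%) and the regulators (2 of 20) were at or under that background.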

How the data were processed

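Liver RNA of 8 mouse samples was measured by RNA-seq, and the authors deposited FPKM values per gene in a table of all samples. The submitters' processing notes name STAR 2.6.1, fastp, DESeq2 and HTSeq, and mm10 as the genome. What each tool did, the annotation and whether strand was used is not given in the sources used here, so overlapping and antisense genes cannot be told apart. An FPKM divides by the library's total, so values rise where a few abundant genes take less of it. Symbols were found for 34490 of 35275 identifiers. The deposited FPKM of all libraries were whole multiples of 1 fragment (100.0% of values within 0.001 fragment), with the length taken as the longest annotated transcript for 15760 genes and inferred from the values for 6982, for which whole numbers follow from the choice of length. This gave depths of 15.11 to 18.79 M fragments and counts summing to between 99.955% and 99.966% of them. A value of 0 allows up to 3 fragments in a library, and such limits and the 95% Wilson intervals cover counting error only.

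The 13573 genes averaging 0.5 FPKM or more were tested on log2(FPKM + 1), which understates changes of low genes. The test was limma-trend with terms for genotype and sex, in R 4.3.3 with limma 3.58.1. Within-sex effects and the interaction came from 1 mean per genotype and sex. Benjamini-Hochberg adjusted p under 0.05 over all tested genes was the threshold. The steps were tested on simulated data, and tables and permutation tests were made with Python 3.11.15, pandas 2.3.3 and scipy 1.17.1. Alternatives were other pseudocounts, filters, scalings, weights and sets of libraries, and voom on the recovered fragments. The targeted genes, members named by role (stalk, 5S RNA partners, Rps6, Rpsa and paralogs), the 5 with the highest FPKM, the 6 highest and 6 lowest changes, the 4 smallest interaction p and up to 3 genes per other list by genotype p are named. The members, lists and tests were chosen with earlier results of these data known. Replicate numbers follow sample order and pair nothing. Some members counted here are not reported by name or drawn.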

Additional observations from a re-analysis of the deposited data

Results flagged for a closer look

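Of 114 groups of 4 libraries examined for single genes, 6 had 1 library far from the other 3 relative to the range of its group, where chance gives about 1 group in 20. Rps4l reached 83.98 FPKM in LKO-labelled female 1. Rpl19 reached 1264 FPKM in LKO-labelled male 3 and 378 FPKM in WT male 4, the highest value of each group. Rpl22 had 52.8 FPKM in WT male 3, its highest WT value although the 4 WT libraries lie close together. Rpl39l was listed at 0.069 FPKM in WT male 3 and at 0 in the other WT libraries. Cdkn1a was at 11.3 FPKM in WT male 3, with the other WT libraries at 1.63 FPKM or less. Among summed values, the ratio of small to large subunit fragments of 0.653 in WT male 3 stood below the other WT libraries, which lay at 0.682 to 0.686.

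The change of Rps4l was opposite in the sexes, with a female minus male difference of 5.10 on the log2 scale and an adjusted p of 0.0519 by limma's interaction test. The genotype effect on the targeted genes also differed between the sexes by that test, with female minus male differences of 2.19 for Zfp36, 2.53 for Zfp36l1 and 2.56 for Zfp36l2 (adjusted p = 0.0267, 0.033 and 0.0212), so all 3 genes were lowest in the LKO-labelled males.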

How the results depend on the processing

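No member was lower in the genotype effect under any alternative run, and the members' median log2 change was positive in all. Of the values of 27 members and their alternatives, 486 kept direction and side of the threshold, 19 lost the call, 8 gained one and 0 reversed. Leaving out 1 library at a time gave 27 to 62 members higher (genes called 1957 to 4054), 4 to 54 in females, 0 to 28 in males with 0 to 1 lower there, and 0 to 2 in the interaction. After median-of-ratios scaling it gave 3 to 19 members higher and 1440 to 2872 genes called, of 2891 with all libraries. The main counts were 4132 genes called, 52 members higher, 46 in females and 24 in males. Median-of-ratios scaling gave 15 higher with a median of 0.47, 7 in females, and 8 higher and 1 lower in males. Quantile normalization called 2421 genes and a filter of mean FPKM of at least 5 called 2557. With no filter, 22 members were called in females and 9 in males, and with totals that leave out the 50 most abundant genes 20 in females. The shares of all genes called within a sex are not given here for these alternatives or for the removal of GC and length trends. A pseudocount of 0.1 gave 1 lower in males and 1 in the interaction. Library weights (limma arrayWeights) gave 1 higher in females, 1 lower in males and 1 in the interaction. Without both libraries low in Gm42418, 1970 genes were called and 26 members were higher, and after scaling 1502 genes and 1 member. With GC and length trends removed, 2570 genes were called, 18 members were higher with a median of 0.54, 10 in females and 12 in males. The member called lower in males or in the interaction was Rps4l. Without LKO-labelled female 1 the female minus male change of Rpl39 was 1.57 on the log2 scale, with LKO-labelled female 2 alone behind the female change. Pyrimidine runs of at least 6 and 10 bases were found in 72.9% and 40.7% of members. The causes of these differences were not tested. The GC and length fit, voom, the alternatives after scaling and the Gm42418 alternative for the sexes were chosen after seeing the data. The planned edgeR and DESeq2 tests were not run, since the deposited values are FPKM. No paired analysis was possible because the labels give no replicate numbers shared by the genotypes. Running numbers in the sample titles lie next to each other between genotypes, but no label says what neighbours share, and a fit blocked on them was not run.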
